A study of Rattus norvegicus with 17 samples.

Results

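The transcripts of Adra1d (ENSRNOG00000021256), Ephb6 (ENSRNOG00000014367) and Rasgrf1 (ENSRNOG00000014025) were examined in rat kidney, 3 genes of the 23487 in the count table and of the 15438 that passed the filter on low counts. All 3 passed that filter. The genes were picked by name because their transcripts stood higher in operated than in control kidneys, so the levels in the 2 groups are given as a description with no test. Tests were kept for differences among the operated rats, which were not the stated ground of the choice. Earlier results of these data were known when the genes were chosen, so the p-values are not free of that knowledge. The SNx group held 12 kidneys of male Wistar Han rats after sub-total nephrectomy, in which part of the right kidney was resected and the left kidney was then removed, and the remnant fails over the following weeks. The control group held 5 kidneys and is called NoOp in the labels, while the methods of the study call its control rats sham operated. The labels name no transgene and no agent for either group. Time and age at collection are not in the labels, rats were culled at different times after surgery, and the labels do not say which SNx rats had reached the functional threshold of the study, so kidney function could not be set beside the transcripts. RNA was depleted of ribosomal RNA, turned into strand-specific libraries and sequenced from both ends, with 1 library per rat.

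Of the 3 genes, Adra1d and Ephb6 encode receptors for different ligands and Rasgrf1 encodes a protein that acts on Ras inside the cell. Adra1d encodes the alpha-1D adrenergic receptor, a receptor for noradrenaline and adrenaline that couples through Gq proteins to phospholipase C and calcium release and is known for its part in the contraction of arteries. Ephb6 encodes a member of the Eph family, the receptors for membrane-bound ephrins, whose kinase domain has lost its catalytic activity and which signals through partner receptors. Rasgrf1 encodes an exchange factor that loads Ras with GTP in response to calcium and calmodulin and is best known from neurons. Ras in turn feeds the MAPK cascade, at the end of which early response genes such as Fos and Egr2 are transcribed.

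The SNx libraries held 19210434 to 30784070 counts (median 22709319) and the NoOp libraries 30454170 to 43876369 (median 32745316). Levels are given as log2 CPM (counts scaled to a common library total) after TMM scaling, which corrects for library composition, with a prior count of 2 that keeps 0 counts on the log scale. Markers of the proximal tubule, the main tubule segment of the kidney cortex, summed to 20796–24540 CPM in NoOp and to 1722–15410 CPM in SNx over the 8 of 10 list members with an identifier, so that the tissue held kidney transcripts in every library. In whole tissue, fewer cells of a type and less RNA per cell cannot be told apart. Of all tested genes, 58.0% passed edgeR's quasi-likelihood test between SNx and NoOp at an FDR below 0.05 (8949 genes, of which 4672, or 30.3%, were higher and 4277, or 27.7%, lower in SNx).

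Adra1d stood higher in every SNx kidney than in any NoOp kidney. In the NoOp libraries 1 to 5 its level was 0.95, 1.60, 1.81, 1.10 and 1.64 log2 CPM, from 52 to 113 counts. In SNx the lowest level was 4.61 log2 CPM (SNx 11, 520 counts), the median 6.09 and the highest 7.90 (SNx 5, 5685 counts). The lowest SNx library lay 2.80 log2 units above the highest NoOp library. Its mean was 6.30 ± 1.07 log2 CPM over the SNx libraries (SD, n = 12) and 1.42 ± 0.37 over the NoOp libraries (SD, n = 5). The ratio of mean CPM was 37.7-fold, and single SNx libraries lay between 9.10-fold and 89.8-fold above the NoOp mean. The fitted log2 fold change was 5.23 (SE 0.63).

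Ephb6 also stood higher in all 12 SNx kidneys. In the NoOp libraries 1 to 5 its level was 1.68, 1.63, 1.47, 1.80 and 2.02 log2 CPM, from 87 to 132 counts. In SNx the lowest level was 3.76 log2 CPM (SNx 11, 289 counts), the median 5.41 and the highest 6.90 (SNx 1, 2496 counts), and the gap between the groups was 1.74 log2 units. Its mean was 5.50 ± 1.02 log2 CPM over the SNx libraries (SD, n = 12) and 1.72 ± 0.20 over the NoOp libraries (SD, n = 5). The ratio of mean CPM was 17.2-fold, with single SNx libraries between 4.15-fold and 36.8-fold above the NoOp mean and a fitted log2 fold change of 4.10 (SE 0.54).

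Rasgrf1 was counted at most 2 times in any NoOp kidney and at least 14 times in every SNx kidney. The NoOp libraries 1 to 5 held 0, 0, 2, 0 and 1 counts. At their depth 3 counts equal 0.0776 to 0.107 CPM, which is the level that 0 counts still allow, for counting error only. The 2 counts of NoOp 3 and the 1 count of NoOp 5 allow more than that. The folds below are therefore bounds against a level of 3 counts, which no NoOp library exceeded. The SNx libraries held from 14 counts (SNx 11, 0.654 CPM) to 185 counts (SNx 1, 8.86 CPM), with a median of 53 counts (2.34 CPM). Set against the highest of those levels of 3 counts, the mean of the SNx libraries was at least 26.1-fold higher, and single SNx libraries were at least 6.12-fold to at least 83.0-fold higher. In log2 CPM the gene lay between -0.46 and 3.16 in SNx, with a mean of 1.19 ± 0.996 (SD, n = 12), and its counts were the smallest of the 3 genes, so its values carry the largest counting error.

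In all 3 genes the groups did not overlap, as in 13.5% of all tested genes with every SNx library above (2085) and 9.60% with every SNx library below (1482), and nothing is read from that count because the genes were chosen on this contrast. Within SNx each gene spread widely, over 3.30 log2 units for Adra1d, 3.14 for Ephb6 and 3.62 for Rasgrf1. SNx 11 was the lowest library for all 3 genes. SNx 1 was the highest for Ephb6 and Rasgrf1, and SNx 5 was the highest for Adra1d. The plot of levels by library shows both the gap between the groups and this spread.

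**Figure D1:**
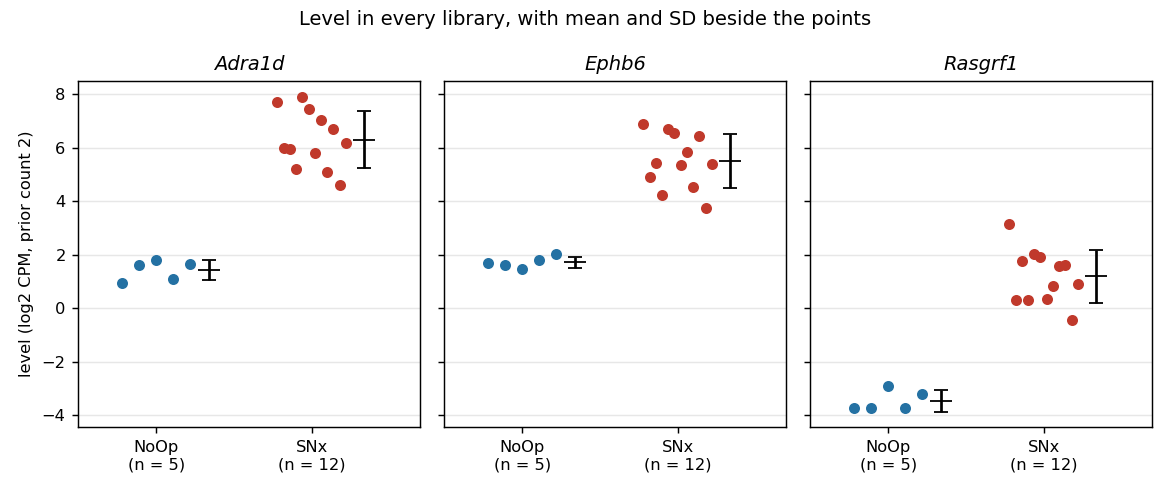
Level of Adra1d, Ephb6 and Rasgrf1 in log2 CPM (prior count 2) in each NoOp (blue, n = 5) and SNx (red, n = 12) library, with the group mean and SD as a black mark beside the points. Every SNx point lies above every NoOp point, and the NoOp points of Rasgrf1 stand for 0 to 2 counts.

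Because the 3 genes stood high together, the 250 bases before the start of each are shown, as given by RefSeq for build GRCr8 and read 5′ to 3′ on the strand of the gene. All 3 genes had an entry, matched by symbol. Capitals mark matches to the letter patterns searched on both strands, which were AP-1 (TGANTCA), NF-kB (GGGNNNNNCC), STAT (TTCNNNGAA), TEAD (GGAATG), SP1 (GGGCGG) and the TATA box (TATAAA). The windows lie at chr3:139262332-139262581 on the minus strand for Adra1d, at chr4:71458382-71458631 on the plus strand for Ephb6 and at chr8:99324736-99324985 on the plus strand for Rasgrf1, while the counts themselves were made against build rn6.
Adra1d: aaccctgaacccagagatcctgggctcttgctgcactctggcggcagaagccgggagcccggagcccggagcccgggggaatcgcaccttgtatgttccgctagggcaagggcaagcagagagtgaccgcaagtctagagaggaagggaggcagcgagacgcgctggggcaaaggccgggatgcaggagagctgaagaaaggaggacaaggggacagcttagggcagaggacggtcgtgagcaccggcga
Ephb6: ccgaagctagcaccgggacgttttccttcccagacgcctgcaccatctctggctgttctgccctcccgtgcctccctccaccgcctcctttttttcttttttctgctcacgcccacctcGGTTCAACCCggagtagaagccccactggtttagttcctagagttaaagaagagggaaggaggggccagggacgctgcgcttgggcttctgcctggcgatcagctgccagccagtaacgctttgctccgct
Rasgrf1: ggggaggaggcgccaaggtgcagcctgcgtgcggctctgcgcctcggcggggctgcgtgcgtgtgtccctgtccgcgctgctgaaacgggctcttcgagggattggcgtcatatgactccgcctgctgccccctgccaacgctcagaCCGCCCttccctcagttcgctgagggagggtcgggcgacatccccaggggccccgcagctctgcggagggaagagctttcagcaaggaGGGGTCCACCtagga

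All 3 windows were rich in G and C, with 64.0% for Adra1d, 59.2% for Ephb6 and 68.8% for Rasgrf1 against a median of 51.2% over 33469 rat promoters of the same length. They held 16, 14 and 21 CpG dinucleotides in that order, against a median of 5, and 23.8%, 27.6% and 15.1% of all promoters held at least as many. Ephb6 had 1 match to the NF-kB letters, GGTTCAACCC on the reverse strand, beginning 131 bases before the start. Rasgrf1 had 1 match to the same letters, GGGGTCCACC at 15 bases before the start, and 1 match to the SP1 letters on the reverse strand at 103 bases. The NF-kB letters occurred in 42.3% and the SP1 letters in 30.5% of all promoters. None of the 6 patterns occurred in the Adra1d window, and no window held the AP-1, STAT, TEAD or TATA letters, which occurred in 6.34%, 7.67%, 12.1% and 12.9% of promoters. A match of letters is a description and no evidence of binding, and no pattern was shared by all 3 genes.

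Whether the genes followed the severity of the remnant kidney was addressed among the 12 SNx libraries alone. As the labels hold no clinical value, 4 transcript measures stood for severity. The first principal component (PC1) of the SNx libraries, computed without the 3 genes, held 48.4% of the variance and ran from -62.0 (SNx 11) to 85.6 (SNx 1). The mean level of the proximal tubule markers ran from 6.77 to 10.28 log2 CPM in SNx, against 10.69 to 11.04 in NoOp. Lcn2, a secreted protein of injured tubules, ran from 4.94 to 7.70 log2 CPM in SNx and from 1.14 to 1.96 in NoOp. Col3a1, a fibrillar collagen of scar tissue, ran from 8.62 to 11.52 log2 CPM in SNx and from 6.97 to 7.46 in NoOp. PC1 followed the proximal tubule mean (r = -0.975) and Lcn2 (r = 0.924) closely and Col3a1 less (r = 0.460), over the same 12 libraries, as a description.

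Adra1d and Ephb6 rose with PC1 in SNx. The 3 libraries with the lowest PC1 scores (SNx 11, SNx 4 and SNx 9) were also the 3 lowest for both genes, with 4.61, 5.22 and 5.08 log2 CPM of Adra1d and 3.76, 4.23 and 4.55 log2 CPM of Ephb6. For Adra1d Pearson's r was 0.957 and Spearman's rho 0.944 (permutation tests, adjusted p = 3.75e-05 and 0.0001, n = 12). For Ephb6 r was 0.973 and rho 0.986 (permutation tests, adjusted p = 3.75e-05 and 5e-05, n = 12). These and all following p-values for the 3 genes against severity or each other were two-sided, came from 100000 permutations, and were adjusted by Benjamini-Hochberg over 15 relations, where the unadjusted p of 1e-05 for both r values is the smallest that number of permutations can give. Leaving out SNx 1 and SNx 5, which lay farthest from the median of PC1, gave r = 0.956 for Adra1d and 0.985 for Ephb6. Many genes followed this component, since the median absolute r over all tested genes was 0.644, and 4.66% of them had an absolute r at least as large as Adra1d and 2.19% one at least as large as Ephb6.

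Rasgrf1 followed PC1 less closely. Its r was 0.814 and its rho 0.839 (permutation tests, adjusted p = 0.00251 and 0.00203, n = 12), and 29.3% of all tested genes had an absolute r at least as large. SNx 9 had the third lowest PC1 score but 1.57 log2 CPM of Rasgrf1 (90 counts), above the SNx median of 1.23. SNx 2, with the next PC1 score, had 0.31 log2 CPM (30 counts). Without SNx 1 and SNx 5 the r was 0.633 (permutation test, adjusted p = 0.0775, n = 10), so the call was lost in this smaller set with a narrower range of PC1. Without any single library it stayed past the threshold, with r from 0.690 to 0.908.

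**Figure D2:**
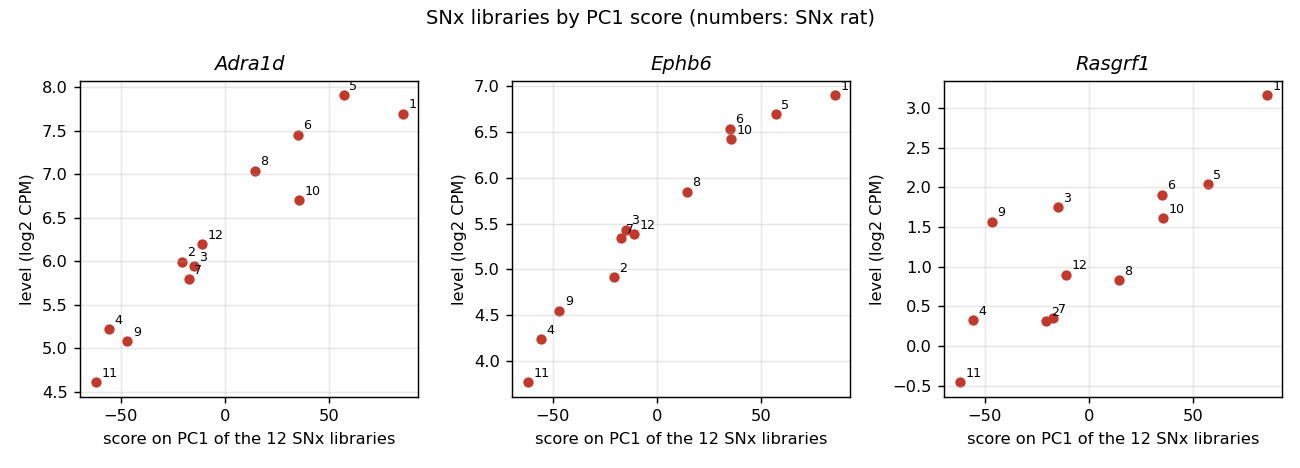
Level of each gene in log2 CPM against the score on PC1 of the 12 SNx libraries, with 1 point per library and the number of the SNx rat beside it. Adra1d and Ephb6 climb with the score from SNx 11 to SNx 1 and SNx 5 (r = 0.957 and 0.973), while Rasgrf1 scatters more (r = 0.814) and SNx 1 stands alone at the top.

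Both tubule measures gave relations past the threshold. Adra1d fell as the proximal tubule mean rose (r = -0.895, rho = -0.923, permutation tests, adjusted p = 0.00015 and 0.000107, n = 12), and so did Ephb6 (r = -0.919, rho = -0.944, permutation tests, adjusted p = 6e-05 and 5e-05, n = 12). With Lcn2, r was 0.954 and rho 0.972 for Adra1d (permutation tests, adjusted p = 3.75e-05 and 5e-05, n = 12). For Ephb6 they were 0.929 and 0.944 (permutation tests, adjusted p = 7.5e-05 and 9e-05, n = 12). An absolute r with Lcn2 at least as large was found in 0.233% of all tested genes for Adra1d, 1.26% for Ephb6 and 23.4% for Rasgrf1. For the proximal tubule mean these shares were 12.5%, 8.23% and 29.9%. Without the 2 libraries farthest from the median of the measure, r with the proximal tubule mean was -0.865 for Adra1d and -0.917 for Ephb6, and r with Lcn2 was 0.940 and 0.868. For Rasgrf1, r was -0.786 with the proximal tubule mean and 0.789 with Lcn2 (permutation tests, adjusted p = 0.00296 for both, n = 12), with rho of -0.741 and 0.804 (adjusted p = 0.0108 and 0.00346, permutation tests). Without SNx 1 and SNx 5 the r with the proximal tubule mean was -0.541, and without SNx 4 and SNx 11 the r with Lcn2 was 0.661 (permutation tests, adjusted p = 0.137 and 0.0701, n = 10), so both calls were lost in these smaller sets. Without any single library both stayed past the threshold, with r from -0.858 to -0.641 and from 0.718 to 0.829.

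None of the 3 genes had a relation with Col3a1 that passed the threshold. Pearson's r was 0.278 for Adra1d (rho 0.196), 0.351 for Ephb6 (rho 0.266) and 0.522 for Rasgrf1 (rho 0.252), with adjusted p = 0.405, 0.294 and 0.0924 for r and 0.544, 0.461 and 0.461 for rho (permutation tests, n = 12). The sign was not stable. Without SNx 1, which had the highest Col3a1 level of 11.52 log2 CPM, r was -0.117 for Adra1d, -0.0128 for Ephb6 and 0.0192 for Rasgrf1. Without both SNx 1 and SNx 8, which lay farthest from the median of Col3a1, it was 0.149, 0.170 and -0.0568 in the same order. The difference between the relations with Lcn2 and with Col3a1 was not tested.

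**Figure D3:**
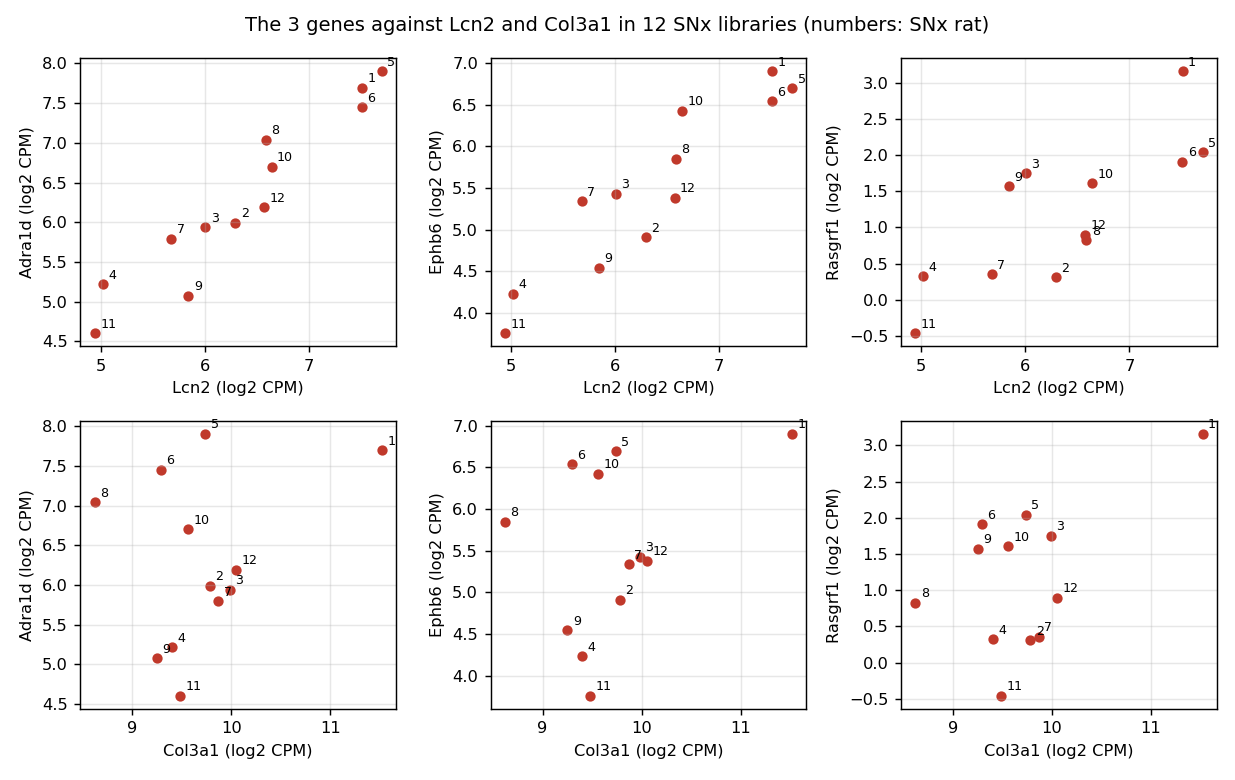
Level of each gene in log2 CPM (vertical axes) against Lcn2 in the upper row and Col3a1 in the lower row, also in log2 CPM, for the 12 SNx libraries with the number of the SNx rat beside each point. The genes climb with Lcn2 (r = 0.954, 0.929 and 0.789 from left to right), whereas SNx 1 lies apart on the Col3a1 axis and r without it was -0.117 for Adra1d and -0.0128 for Ephb6.

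Among themselves, Adra1d and Ephb6 varied together in SNx (r = 0.959, rho = 0.944, permutation tests, adjusted p = 3.75e-05 and 9e-05, n = 12). Their difference in log2 CPM had an SD of 0.30 over the 12 SNx libraries, against 1.07 for Adra1d and 1.02 for Ephb6 alone. Rasgrf1 varied with Ephb6 (r = 0.811, rho = 0.874, adjusted p = 0.00252 and 0.000844, permutation tests, n = 12) and with Adra1d (r = 0.736, rho = 0.734, adjusted p = 0.00835 and 0.0108, permutation tests, n = 12). Without the farthest 2 libraries these were 0.652 and 0.584 (permutation tests, adjusted p = 0.0775 and 0.107, n = 10), so both calls were lost in these smaller sets, while Adra1d with Ephb6 had 0.944. Without any single library all 3 relations stayed past the threshold, with r from 0.737 to 0.892 for Ephb6 with Rasgrf1 and from 0.644 to 0.842 for Adra1d with Rasgrf1.

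The titles of the libraries fall into a lower and an upper range of numbers, with 6 SNx libraries in each and all 5 NoOp libraries in the lower one. Mean levels in the lower range were higher by 0.80 log2 units for Adra1d, 0.57 for Ephb6 and 0.78 for Rasgrf1, which did not exceed the spread between libraries (exact permutation tests, two-sided, adjusted p = 0.308, 0.342 and 0.308, n = 6 and 6). Within the lower range r with PC1 was 0.963 for Adra1d, 0.973 for Ephb6 and 0.906 for Rasgrf1, and within the upper range it was 0.950, 0.984 and 0.547. With the proximal tubule mean the 2 ranges gave -0.925 and -0.862 for Adra1d, -0.924 and -0.931 for Ephb6 and -0.887 and -0.516 for Rasgrf1. With Lcn2 they gave 0.983 and 0.903, 0.962 and 0.884, and 0.765 and 0.733 in the same order of genes. With Col3a1 they gave 0.378 and -0.256, 0.464 and -0.0655, and 0.691 and -0.130. Adra1d with Ephb6 had 0.976 and 0.939, Adra1d with Rasgrf1 0.813 and 0.479, and Ephb6 with Rasgrf1 0.907 and 0.616.

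Sequencing depth moved with the genes. Total counts on the log2 scale had r = -0.653 with Adra1d and -0.638 with Ephb6 (permutation tests, adjusted p = 0.0414 for both over 3 relations, n = 12), -0.313 with Rasgrf1 (adjusted p = 0.321, permutation test, n = 12) and -0.707 with PC1 (permutation test, p = 0.0117, n = 12). Spearman's rho was -0.622, -0.601 and -0.343 for the 3 genes, none past the threshold (permutation tests, adjusted p = 0.0641, 0.0641 and 0.277, n = 12). Without the farthest 2 libraries r was -0.617, -0.690 and -0.677 for the 3 genes. After log2 total counts had been removed by linear regression, r with PC1 was 0.926 for Adra1d, 0.958 for Ephb6 and 0.882 for Rasgrf1. RNA integrity varied among the samples of the study and is not given per library, and its part was not tested.

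Markers of other cell types were set beside the genes in the same 12 libraries, in 15 further relations adjusted among themselves. Smooth muscle and pericyte markers, from cells in which Adra1d is well known, summed to 177–619 CPM in SNx and 177–216 CPM in NoOp, over 4 of 10 members. Their mean level had r = 0.0247 with Adra1d, 0.0994 with Ephb6 and 0.420 with Rasgrf1 (permutation tests, adjusted p = 0.985, 0.887 and 0.259, n = 12). T cell markers, for cells that are known to carry Ephb6, summed to 80.7–151 CPM in SNx and 24.0–40.3 CPM in NoOp, over 6 of 15 members, with r = 0.00610 for Adra1d, 0.167 for Ephb6 and 0.122 for Rasgrf1 (permutation tests, adjusted p = 0.985, 0.815 and 0.883, n = 12). No tested member of any marker list was at 0 in a whole group.

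Injured tubule markers, which include Lcn2, summed to 3632–17664 CPM in SNx and 819–1186 CPM in NoOp over 7 of 12 members. Their mean had r = 0.947 with Adra1d, 0.953 with Ephb6 and 0.771 with Rasgrf1 (permutation tests, adjusted p = 0.00015, 0.000225 and 0.0169, n = 12). Macrophage markers summed to 211–637 CPM in SNx and 88.8–129 CPM in NoOp over 8 of 11 members, with r = 0.529, 0.558 and 0.712 for the 3 genes, of which that of Rasgrf1 passed the threshold (permutation test, adjusted p = 0.0363, n = 12). Markers of matrix-producing fibroblasts, here Col1a1, Col3a1 and Postn, summed to 814–8867 CPM in SNx and 217–268 CPM in NoOp over 3 of 8 members. Their mean, which includes the severity measure Col3a1, had r = 0.549, 0.614 and 0.683 for the 3 genes. Of these, the r of Ephb6 and Rasgrf1 passed (permutation tests, adjusted p = 0.0471 and 0.0436, n = 12). By rank, only the injured tubule markers passed, with rho of 0.958, 0.951 and 0.825 for the 3 genes, while the rho of the other 4 lists ran from -0.189 to 0.587 (permutation tests, adjusted p of at least 0.180, n = 12). Without the farthest 2 libraries, in the order Adra1d, Ephb6 and Rasgrf1, r was 0.936, 0.910 and 0.619 with injured tubule markers, 0.674, 0.607 and 0.576 with macrophage markers and 0.670, 0.717 and 0.372 with fibroblast markers. In the lower range of title numbers r was 0.750, 0.766 and 0.792 with macrophage markers, and in the upper range -0.133, 0.0733 and 0.343. With fibroblast markers the lower range gave 0.532, 0.599 and 0.764 and the upper range 0.380, 0.573 and 0.261, and with injured tubule markers they gave 0.974, 0.973 and 0.797 against 0.911, 0.915 and 0.677. The part of any of these cell types in the levels of the 3 genes was not tested.

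The other genes of the receptor families, of G protein and Ras signalling and of the MAPK cascade were read from 5 lists. An identifier could be paired with a symbol only where the study's lists of changed genes, as read here, held the gene. Those cover these rats and the other SNx study of the paper, and hold fewer genes than the paper counts as changed. A member without an identifier may therefore also have changed. The 5 lists are thus incomplete and their counts are no independent evidence of direction. Apart from the 3 genes, 34 list members could be tested, of which 29 were higher in SNx and 4 lower. That is 85.3% higher, against 53.4% of the 2003 tested genes with a symbol and 30.3% of all tested genes. The median log2 fold change was 1.17 over the 34 genes, 0.49 over genes with a symbol and 0.02 over all genes. In the lists as read, which gave 2007 identifiers, 24 of the 34 genes appear for the other SNx study alone, and 20 of these were higher. That placement does not mean that the study left a gene uncalled in these rats. Col3a1 stands under the other study alone, although the paper reports it as changed in both.

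Among adrenergic receptors, Adra1b, the alpha-1B receptor that couples to the same Gq pathway, moved against Adra1d. It had 4.77, 4.82, 3.92, 4.41 and 4.22 log2 CPM in NoOp 1 to 5. In SNx it ran from 2.46 (SNx 1) over a median of 3.43 to 4.31 (SNx 4), so the groups overlapped through SNx 4 and SNx 11. The log2 fold change was -1.09 (SE 0.26, edgeR quasi-likelihood test, adjusted p = 0.00249). Within SNx the level of Adra1b fell as Adra1d rose, with r = -0.865 and rho = -0.881 (permutation tests, adjusted p = 0.00074 and 0.00114 over 3 relations chosen after the values were seen, n = 12). Without SNx 1 and SNx 8, which lay farthest from the median of Adra1b, r was -0.835. In the lower and upper range of title numbers r was -0.950 and -0.948. Adra1b and Adra1d each also followed PC1 (r = -0.894 and 0.957), as did many genes, with a median absolute r of 0.644 over all tested genes. A relation between the 2 receptors apart from PC1 was not tested. The other 7 adrenergic receptors of the list had no identifier.

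Downstream of G protein-coupled receptors, 12 of 13 tested genes were higher in SNx and 1 was lower, where 53.4% of all tested genes with a symbol were higher. Only 13 of the 53 members of this list had an identifier. Adcy7, an adenylyl cyclase, had 2.34–3.04 log2 CPM in NoOp and 4.65–6.15 in SNx, a log2 fold change of 2.67 (SE 0.23). Plcb2, a phospholipase C that G proteins activate, had 0.86–1.40 log2 CPM in NoOp and 2.57–4.30 in SNx, a log2 fold change of 2.54 (SE 0.25). Itpr3, a channel that releases calcium upon phospholipase C activity, rose by a log2 fold change of 1.39 (SE 0.31), with overlapping groups. The regulators of G protein signalling Rgs10, Rgs12 and Rgs19 rose by 1.65, 1.19 and 1.42 on the log2 scale, and the Gq-class subunit Gna15 by 1.61. Gnai1, an inhibitory G protein subunit, fell by 0.59 on the log2 scale (SE 0.15), whereas its relative Gnai2 rose by 0.64 (SE 0.11). Gnao1, Plch1, Adcy2 and Arrb2 made up the rest, with log2 fold changes from 0.83 to 2.04.

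Of the Eph family, 3 of 22 list members had an identifier, and both genes other than Ephb6 rose. Ephb1, a catalytically active receptor, had 1.65, 1.46, 1.62, 1.03 and 1.92 log2 CPM in NoOp 1 to 5 and 3.22 to 4.93 in SNx, with a median of 4.05 and a log2 fold change of 2.52 (SE 0.27). Efna4, an ephrin anchored to the membrane by a lipid, had 2.63–2.84 log2 CPM in NoOp and 2.89–4.19 in SNx, a log2 fold change of 0.89 (SE 0.20), and its lowest SNx library lay just above the highest NoOp library. Within SNx, Ephb6 had r = 0.829 with Ephb1 (rho 0.748) and 0.903 with Efna4 (rho 0.853), both past the threshold (permutation tests, adjusted p = 0.00074 and 0.00036 for r and 0.00671 and 0.00124 for rho, n = 12), and 0.823 and 0.881 without the farthest 2 libraries. In the lower and upper range of title numbers they were 0.814 and 0.817 for Ephb1 and 0.924 and 0.903 for Efna4. With PC1, r was 0.763 for Ephb1, 0.861 for Efna4 and 0.973 for Ephb6, and relations apart from PC1 were not tested.

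Around Ras, 6 of 8 tested genes other than Rasgrf1 were higher, 1 was lower and 1 did not pass. Of the 52 members of this list 9 had an identifier, Rasgrf1 included, and 53.4% of all tested genes with a symbol were higher. Rasd1, a Ras-related GTPase, rose by 1.95 on the log2 scale (SE 0.40), and Shc1, an adaptor between receptors and Ras, by 0.72 (SE 0.09). The Ras-association genes Rassf1, Rassf4 and Rassf5 rose by 0.43, 1.85 and 0.44. Rasa4, which promotes GTP hydrolysis by Ras, rose by 0.67 (SE 0.26, edgeR quasi-likelihood test, adjusted p = 0.035), a call that was lost without any of SNx 5, SNx 10, NoOp 1, NoOp 2 or NoOp 3, with a log2 fold change of 0.52 to 0.64 and an adjusted p of 0.05015 to 0.106, or with the SNx libraries of the upper range of titles alone (0.51, adjusted p = 0.138). Rgl1, an exchange factor for the Ras-related Ral proteins, fell by 0.81 (SE 0.17), with 8.28–8.49 log2 CPM in NoOp and 6.88–8.02 in SNx. Rasl11b had a log2 fold change of 0.05 (SE 0.21, edgeR quasi-likelihood test, adjusted p = 0.837).

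Of the MAPK cascade and early response genes, 9 of 10 rose, against 53.4% of all tested genes with a symbol. The list held 35 genes, of which only these 10 had an identifier. Egr2, a transcription factor of the early response, had 9 to 41 counts in NoOp and 141 to 696 in SNx, a log2 fold change of 3.93 (SE 0.47). Fosl1, a subunit of the AP-1 transcription factor, had 0 to 3 counts in NoOp and 16 to 115 in SNx. Its SNx mean was at least 19.6-fold higher, set against 3 counts per NoOp library. Myc and Etv4, transcription factors that growth signals induce, rose by 2.33 and 2.54 on the log2 scale, and Dusp4, a phosphatase that switches MAP kinases off, by 1.83 (SE 0.30). Fos, Junb, Jund and Ier3 rose by 1.91, 1.15, 0.55 and 0.64, and the groups overlapped in Fos, Jund and Ier3. Mapk4, an atypical MAP kinase, fell by 1.69 (SE 0.33), with 5.47–6.37 log2 CPM in NoOp and 2.87–5.23 in SNx.

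**Figure D4:**
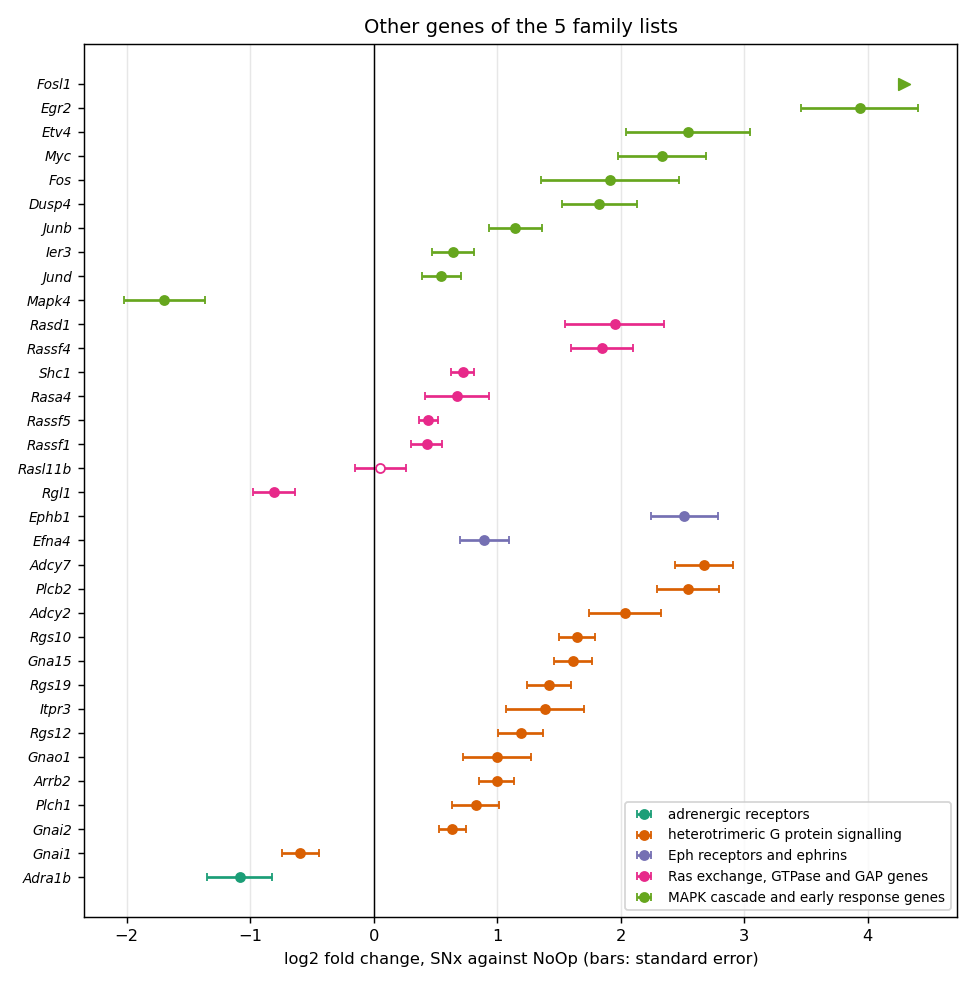
Log2 fold change between SNx and NoOp with its standard error for the 34 tested genes of the 5 lists other than Adra1d, Ephb6 and Rasgrf1, coloured by list, where a filled circle passed an FDR below 0.05 and the open circle (Rasl11b) did not. The arrowhead of Fosl1 marks a lower bound, and Adra1b, Gnai1, Rgl1 and Mapk4 are the 4 genes left of 0 that passed.

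The genes whose levels were most like each of the 3 over the 12 SNx libraries were taken from 1945 genes with a symbol and a mean of at least 1 log2 CPM in SNx, by Pearson's r, as a description. For Adra1d these were Nfkbiz, a nuclear regulator of NF-kB (r = 0.990), Clcf1, a cytokine of the interleukin-6 family (0.988), Farp1 (0.986), P2ry2, a receptor for extracellular nucleotides (0.983), and Myc (0.983). Nfkbiz, Clcf1 and Farp1 were also the closest 3 among all 13348 genes of that level. For Ephb6 they were Ptprs, a receptor tyrosine phosphatase (0.986), B4galnt4, a glycosyltransferase (0.984), Snph, an anchor of mitochondria in axons (0.984), Rab36, a small GTPase (0.984), and Itgb4, an integrin of hemidesmosomes (0.982). For Rasgrf1 the values were lower, with Pkp1, a desmosomal protein, at 0.907, Mob3a at 0.895, Piezo1, a mechanically gated channel, at 0.894, Numbl at 0.891 and Eif4ebp1, a repressor of translation, at 0.888. No gene was among the closest 5 of more than 1 of the 3. All points share the libraries, depth and PC1 described above.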

How the data were processed

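Kidney RNA of 12 SNx and 5 NoOp rats was analysed, grouped by the treatment label. The authors deposited whole-number estimated counts for each gene, made with Salmon against rn6 per the labels and summarised with tximport, and, for 13318 genes, other values that their methods describe as log2 after voom. The 34 columns of the whole-series tables were not used. Counts were rounded (no change), filtered with filterByExpr, scaled with TMM and tested with edgeR 4.0.16 in R 4.3.3 (quasi-likelihood, two-sided, Benjamini-Hochberg, FDR 0.05). Alternatives used DESeq2 1.42.0 and limma 3.58.1. Relations were tested with Python 3.11.15 and scipy 1.17.1. On simulated counts of 15438 genes, edgeR called 97 of 100 genes changed 4-fold and 1 unchanged gene. Total counts of 19210434 to 43876369 set the precision, and no 2 libraries agreed within sampling noise (lowest chi-square per degree of freedom 21.9). Labels do not state separate cultures or litters, 1 library is taken as 1 rat, and p-values measure the spread between libraries. Identifiers were paired with symbols (2007) through the gene lists of the study, whose values were not used. Named genes were the 3 genes, list members with an identifier, severity measures and the 5 most alike genes. The genes and lists were chosen with earlier results of these data known. The labels name polyA RNA although the protocol depletes ribosomal RNA.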

Additional observations from a re-analysis of the deposited data

Results flagged for a closer look

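Among the 3 genes, the other 34 tested genes of the 5 lists, Col3a1 and Lcn2, 1 of 39 groups of 5 NoOp libraries held a value far from the rest, where chance alone would give about 1 in 20, or 1.95. The level of Rgs19, a regulator of G protein signalling, was 1.49 log2 CPM in NoOp 1, while the other NoOp libraries lay between 1.78 and 1.87, a gap of 0.783 of the whole range against a critical value of 0.71. Without NoOp 1 the log2 fold change between SNx and NoOp was 1.35 in place of 1.42.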

How the results depend on the processing

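The alternatives were DESeq2, limma-voom, limma on the deposited log2 values, scaling by RLE or by library size only, a filter of at least 10 counts per library or none, a prior count of 0.5, each library left out, and either range of title numbers alone. The settings for the list genes, the regression on total counts, the marker relations and the family relations were added after seeing the data. The values that answer a comparison kept direction and side of the threshold in 418 recomputations, fell below the threshold in 13 and turned sign in 6, and those of single list genes did so in 873, 6 (Rasa4) and 3 (Rasl11b). The 418 include the folds of the 3 genes between SNx and NoOp, on which the genes were chosen, and the number of genes called. Neither carried a p-value that could cross the threshold, so the tally does not measure how firm the relations within SNx were. With the farthest 2 libraries left out, Rasgrf1 lost its call with PC1 (0.633), the proximal tubule mean (-0.541), Lcn2 (0.661), Adra1d (0.584) and Ephb6 (0.652), and its r with Col3a1 turned to -0.0568. In the lower range the calls of Rasgrf1 with Lcn2 (0.765) and Adra1d (0.813) were lost. In the upper range those of Adra1d with the proximal tubule mean (-0.862) and of Rasgrf1 with PC1 (0.547), the proximal tubule mean (-0.516), Lcn2 (0.733), Adra1d (0.479) and Ephb6 (0.616) were lost, and r with Col3a1 was -0.256, -0.0655 and -0.130 for Adra1d, Ephb6 and Rasgrf1. These settings hold fewer samples, 10 or 6. Over each SNx library left out, r with Col3a1 ran from -0.117 to 0.457 for Adra1d and from -0.0128 to 0.470 for Ephb6, below 0 in both only without SNx 1. Rasl11b ran from -0.11 to 0.32 over each library left out, with -0.11 and -0.00198 without NoOp 1 and NoOp 2, and had -0.00107 with the lower range. The cause was not tested. Scaling by library size only took the median log2 fold change over all genes from 0.02 to 0.23 and the calls from 4672 higher and 4277 lower to 7044 and 2403, while 29 of 34 list genes stayed higher. The bound of Rasgrf1 needs counts and has no value under DESeq2, limma-voom, the deposited values or the filters, and Rasgrf1, Fosl1 and Egr2 leave the table with at least 10 counts in every library. No paired analysis was possible because the labels give no replicate numbers and the numbers here follow accession order only. Depth limits Rasgrf1 most, at 0 to 2 counts in NoOp.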
